A study of Mus musculus with 16 samples.

Results

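The data describe how ventricle that lacks CHIP responded to pressure overload, measured 1 week after surgery. They comprise 8 of the 16 two-colour microarrays of the series: 4 arrays of CHIP-/- mice that underwent trans-aortic banding (TAB), in which a ligature narrows the aorta, and 4 arrays of CHIP-/- mice that underwent a sham operation. The members were chosen by their labels, not by a measured value. Both groups carry the CHIP-/- genotype in strain 129Sv, and the tissue is heart ventricle. The other 8 arrays hold 4 wild-type TAB and 4 wild-type sham ventricles of the same strain and time after surgery, and are used here to test where the CHIP-/- response differed. Per the labels, each array is a separate biological replicate. The sources used here do not give the age or sex of the mice or the construction of the knockout allele. The RNA came from whole ventricle tissue, so these arrays do not separate heart muscle cells from the others. On each array, 500 ng of heart RNA carried Cy5 and 500 ng of a reference RNA from whole neonatal mice of mixed 129Sv and C57BL/6 background carried Cy3. A value is the log2 ratio of heart over reference, so it compares a gene between arrays and never 1 gene with another.

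CHIP, encoded by Stub1, is a cochaperone of Hsp70 and Hsp90 and a ubiquitin ligase that marks chaperone-bound proteins for the proteasome. A narrowed aorta makes the left ventricle pump against a higher pressure. Heart muscle cells answer such a load by enlarging and by returning to fetal gene products, while fibroblasts deposit matrix, macrophages gather and the adult reliance on fatty acids as fuel recedes. These are general features of the pressure-loaded heart, given as background.

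Promoter sequences are shown for 4 genes that stand for separate groups of the response, so that the letters can be read beside the values that follow. They are the 250 bases before the RefSeq start on build GRCm38.p6, 5′ to 3′ on the gene's strand, with the searched motif in capitals. Nppb (chr4:147985650-147985899, plus strand) encodes brain natriuretic peptide and holds an MCAT motif. Acta1 (chr8:123894776-123895025, minus strand) encodes skeletal alpha-actin, a fetal gene of the heart, and holds a CArG box. Mki67 (chr7:135716380-135716629, minus strand) encodes the proliferation antigen Ki-67 and holds 3 CCAAT boxes. Ciart (chr3:95882229-95882478, minus strand) encodes a repressor of the circadian clock and holds 3 E-boxes.
Nppb: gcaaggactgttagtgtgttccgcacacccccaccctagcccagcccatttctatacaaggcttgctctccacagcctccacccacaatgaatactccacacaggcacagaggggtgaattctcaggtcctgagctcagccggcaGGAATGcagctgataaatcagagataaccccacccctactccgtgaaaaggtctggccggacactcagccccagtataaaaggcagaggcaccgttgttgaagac
Acta1: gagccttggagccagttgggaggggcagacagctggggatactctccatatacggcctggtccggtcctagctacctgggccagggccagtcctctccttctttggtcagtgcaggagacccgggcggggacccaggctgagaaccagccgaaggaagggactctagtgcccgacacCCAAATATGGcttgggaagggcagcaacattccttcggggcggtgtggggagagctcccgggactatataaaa
Mki67: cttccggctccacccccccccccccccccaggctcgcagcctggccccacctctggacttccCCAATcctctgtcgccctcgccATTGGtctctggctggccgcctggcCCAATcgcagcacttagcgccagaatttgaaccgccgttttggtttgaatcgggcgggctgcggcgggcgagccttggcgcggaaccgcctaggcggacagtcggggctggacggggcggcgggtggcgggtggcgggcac
Ciart: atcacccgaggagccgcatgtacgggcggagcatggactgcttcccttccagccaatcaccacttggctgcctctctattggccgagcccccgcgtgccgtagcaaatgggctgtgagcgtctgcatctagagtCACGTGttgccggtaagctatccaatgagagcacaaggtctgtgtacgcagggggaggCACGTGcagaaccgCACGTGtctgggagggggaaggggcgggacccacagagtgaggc
In the same 250 bases, on both strands, the MCAT motif GGAATG occurred in 6 of the 13 hypertrophy and fetal programme promoters whose genes rose, against 12.6% of the 27025 promoters of the table and 10.6% of the 7980 of measured features. CCAAT occurred in 23 of 31 promoters of cell cycle genes that rose, against 34.5% of all promoters and 36.5% of those of measured features. It was not particular to that set. Its share in the other sets searched ran from 41.7% for fibrillar collagen and processing genes that rose to 85.7% (6 of 7) for circadian clock genes that fell. The E-box CACGTG occurred in 3 of 7 promoters of circadian clock genes that fell, against 6.05% of all and 8.73% of those of measured features, and Tef, Per1 and Ciart held them. AAGGTCA, a half-site read by estrogen-related receptors, occurred in 5 of 110 promoters of mitochondrial fuel and respiratory chain genes that fell, or 4.55%, against 4.05% of all and 2.66% of those of measured features. A CArG box occurred in 2 of the 13 hypertrophy promoters, those of Acta1 and Fhl1, against 1.4% of all and 1.3% of those of measured features. These are matches of letters in a short window, without a test and without evidence of binding.

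Feature Extraction marked 55 to 459 spots as outliers on the CHIP-/- sham arrays and 3 to 8 on the TAB arrays; for this reason Hrc, Hadh, Pln, Atp2a2, Gsn, Cd34, Fabp4, Rsad2, Ndufs1, Atp5a1, Oxct1, Ckmt2, Dusp1 and Acta1 have values on 3 of the 4 sham arrays. On the 8 arrays, 29.2% to 35.5% of spots were well above background in the heart channel, and the number of arrays limits the precision. Arrays of a group correlated at 0.978 to 0.983 (sham) and 0.960 to 0.970 (TAB) across features, against 0.847 to 0.903 between the groups. The 4 CHIP-/- sham arrays lay on 1 slide and the 4 CHIP-/- TAB arrays on another, so slide and surgery cannot be told apart. Of the 8 heart muscle markers that were checked, 7 were measured, and 6 of these were well above background on all 8 arrays and Ryr2 on 6. CHIP-/- sham replicates 2 and 4 and wild-type sham replicate 4 showed the Y-linked transcripts Ddx3y and Eif2s3y well above background, which no TAB array did. The atrial gene Myl7 was high on CHIP-/- sham replicate 1, where it stood at 2.20, and likewise on replicates 1 and 3 of the wild-type sham group. The part of these sham arrays in the results was not tested beyond leaving them out. Of 5228 calls, 75.5% kept their direction and their call without the arrays with Y-linked transcripts, 89% without those with high Myl7, and 48.9% without both kinds, which leaves 1 CHIP-/- sham array.

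A large share of the transcripts of CHIP-/- ventricle differed between the banded and the sham arrays. Matrix genes, the natriuretic peptide genes, Nmrk2 and the clusterin gene Clu were among the largest rises. Ift81, Ano10 and Gdap10 were among the largest falls, with the ubiquitin ligase-related genes Rnf207, Asb15 and Asb14. So were Hrc of calcium handling, Dgat2 of triglyceride synthesis and Hadh of fat oxidation. In bulk tissue, fewer cells of a type and less RNA per cell cannot be told apart. Of 11058 features tested, 2654 were called higher (24%) and 2574 lower (23.3%), together 5228 (47.3%), where called means limma's adjusted p below 0.05. The rises were larger than the falls: 213 features rose and 120 fell by at least 2-fold, and 21 rose and 6 fell by at least 4-fold. The 4 TAB arrays lay wholly above the 4 sham arrays for 2414 features (21.8%) and wholly below for 2297 (20.8%), together 42.6%. Counts of list members below are read against these shares. The share called was below 47.3% for autophagy (45.8%), interferon-induced (44%), proteasome (43.9%) and hormone and neurotransmitter receptor genes (43.8%). It was also below for atrial (42.9%), neutrophil and mast cell (40%) and red cell markers (20%). The same held for the chaperone and aminoacyl-tRNA synthetase lists, as given below. The median difference of all features was -0.01 on the log2 scale. The split depends on the scaling: with each array centred on its median in place of loess, 697 features were called higher and 4995 lower and the median of all features was -0.22, and in the heart channel alone the counts were 2052 and 2910. Lists whose majority turned under median centring are named where they occur.

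**Figure D1:**
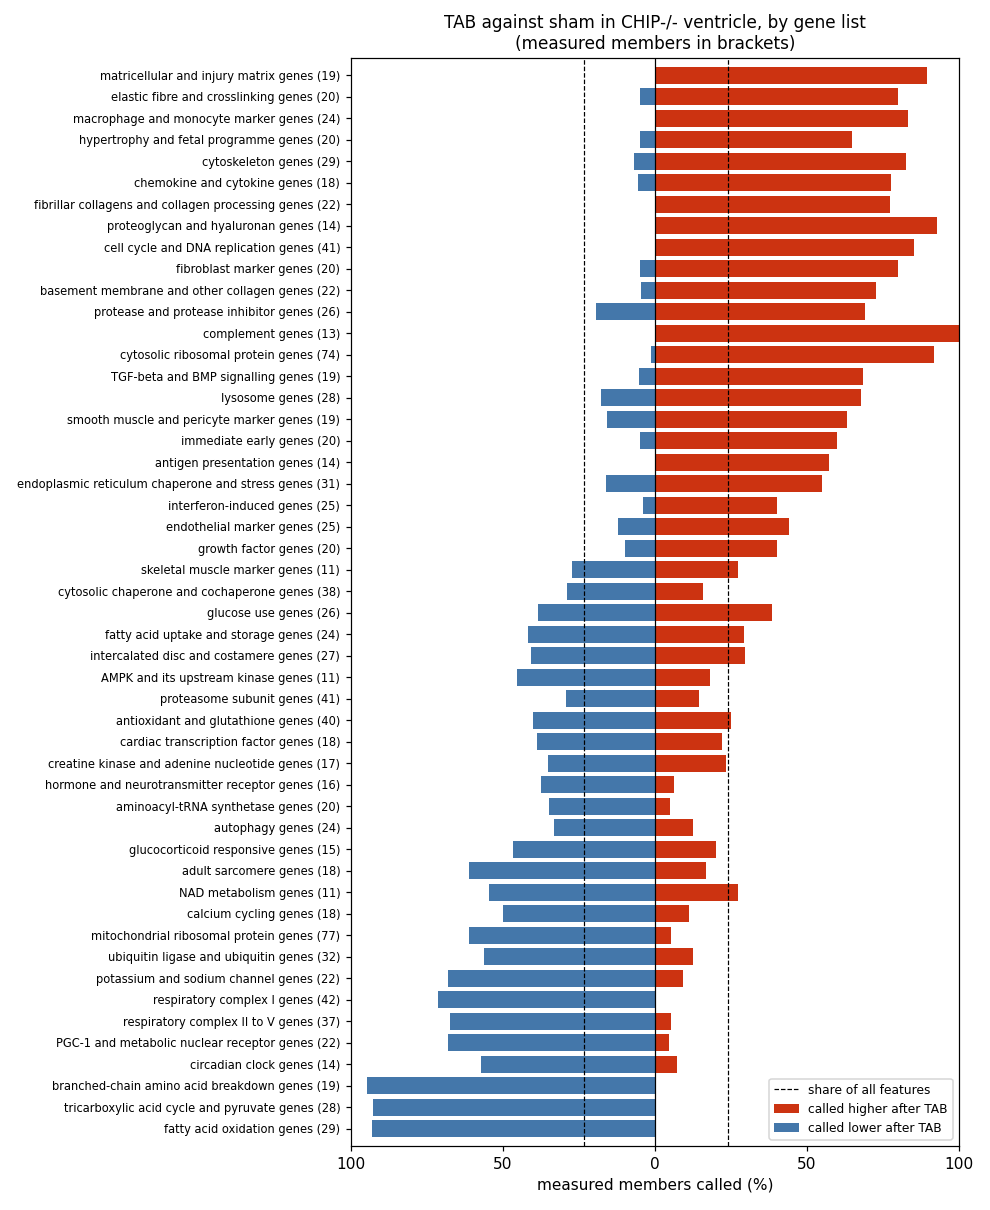
Bars give, for each gene list with at least 10 measured members, the percent of measured members called higher (right, red) or lower (left, blue) after TAB in CHIP-/- ventricle; dashed lines mark the shares of all 11058 features (24% and 23.3%). Matrix, macrophage, complement and ribosomal lists lie to the right, and lists of fatty acid oxidation, the tricarboxylic acid cycle and branched-chain amino acid breakdown to the left; with median centring in place of loess the ribosomal list turns to 2 rises and 10 falls.

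The targeted gene came first as a check of the labels. Stub1 stood at -1.37, -1.31, -1.39 and -1.24 in the sham ventricles and at -1.47, -1.17, -1.36 and -1.29 in the banded ones. All 8 values lay far below the wild-type sham values, which averaged 0.37, and the groups overlapped fully. The difference was 0.00 (SE 0.10, limma's adjusted p = 0.98). The part of the transcript that the probe reads, relative to the deletion, is not known here.

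Of the 20 measured hypertrophy and fetal programme genes, 13 rose, 1 fell and 6 did not pass the test, with a median difference of 0.75. Nppb, the gene of brain natriuretic peptide, stood at 3.36, 3.34, 2.93 and 3.76 in sham and at 6.00, 5.82, 6.40 and 6.08 in banded ventricles. The lowest banded value was more than 2 log2 units above the highest sham value, and the rise of 2.73 (SE 0.16, limma's adjusted p = 3.8e-11) equals 6.62-fold. Nppa, the gene of atrial natriuretic peptide, moved from 3.92, 3.26, 3.09 and 3.62 to 6.24, 6.52, 6.17 and 6.44. Its groups were also more than 2 log2 units apart, with a difference of 2.87 (SE 0.23, limma's adjusted p = 1.6e-09), but the probe was saturated on 3 of the 4 banded arrays, and a second probe gave 3.34. Nppa is also an atrial gene, and the highest sham value was that of replicate 1, the array with high Myl7. Myh7, the slow fetal myosin heavy chain, went from -0.46, -1.03, -0.81 and -0.82 to 1.84, 0.36, 1.21 and 1.89. The banded values spread over more than 1 log2 unit yet stayed above all sham values, and the rise was 2.11 (SE 0.33, limma's adjusted p = 1.3e-05). Acta1, whose promoter is shown above, stood at -3.29, -3.29 and -3.14 on the 3 sham arrays with a value and at -1.66, -1.80, -1.61 and -1.76 after banding, a rise of 1.53 (SE 0.12, limma's adjusted p = 9.8e-10). Rcan1, an inhibitor of calcineurin that calcineurin itself induces, rose by 1.63 (SE 0.17) by this probe and by 0.39 by a second. Nebl, a Z-disc protein of the nebulin family, was the exception and fell by 0.70 (SE 0.08), though a second Nebl probe gave 0.01.

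Adult sarcomere genes went mostly the other way: of 18 measured, 11 fell and 3 rose. Myh6, the fast adult myosin heavy chain, stood at 5.35, 5.33, 5.27 and 5.07 in sham and at 4.33, 4.65, 4.18 and 4.53 in banded ventricles. The groups did not overlap, and the fall was 0.83 (SE 0.09, limma's adjusted p = 1.2e-07). Tnni3, adult cardiac troponin I, fell by 0.65 (SE 0.09) and the myosin light chain kinase gene Mylk3 by 0.75 (SE 0.12). The risers were Smpx, a small muscle protein, at 0.64 (SE 0.07), Pdlim5, a Z-disc adaptor, at 0.33 (SE 0.07), and Tnnt2, cardiac troponin T, whose probes were called in opposite directions, at 0.32 and -1.61.

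**Figure D2:**
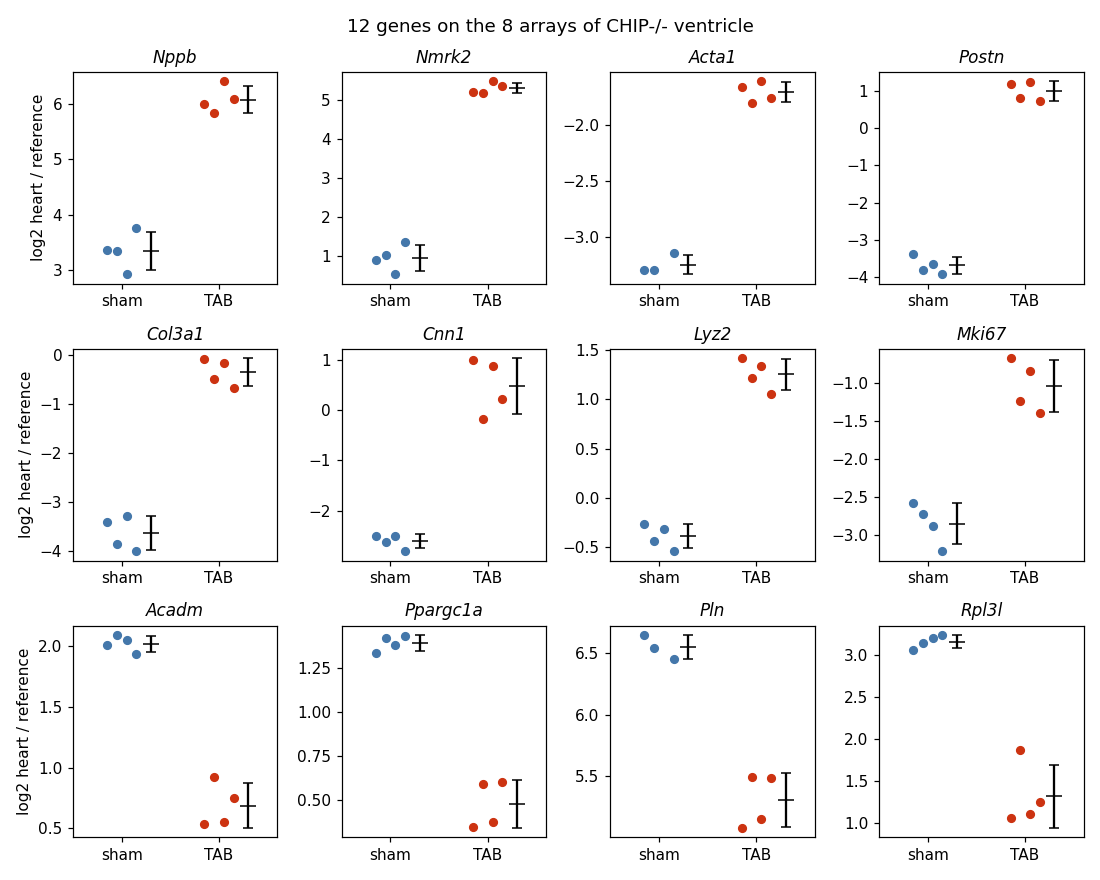
Each panel plots the log2 ratio of heart over reference for 1 gene on the 4 sham (blue) and 4 TAB (red) arrays of CHIP-/- ventricle; the black bar is the mean with its SD. In all 12 panels the groups do not overlap: Nppb, Nmrk2, Acta1, Postn, Col3a1, Cnn1, Lyz2 and Mki67 are higher after TAB, and Acadm, Ppargc1a, Pln and Rpl3l lower.

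Of 18 genes that move calcium between the cytosol and the sarcoplasmic reticulum, 9 fell, 2 rose and 7 did not pass. Hrc, the histidine-rich calcium-binding protein of the reticulum, stood at 2.92, 2.89 and 2.92 on 3 sham arrays and at 0.84, 1.44, 0.88 and 1.30 after banding. Its groups lay more than 1 log2 unit apart, and the fall of 1.80 (SE 0.13, limma's adjusted p = 3.2e-10) equals a 3.48-fold lower level. Pln, phospholamban, which restrains the calcium pump, moved from 6.64, 6.54 and 6.45 on 3 sham arrays to 5.08, 5.50, 5.15 and 5.49, a fall of 1.24 (SE 0.11, limma's adjusted p = 7.5e-09). Atp2a2, the pump itself, fell by 0.89 (SE 0.10) without overlap, and Cacna1c, the pore of the L-type calcium channel, by 0.90 (SE 0.13). Ryr2, the release channel, fell by 0.55 (SE 0.18, limma's adjusted p = 0.015), but its groups overlapped, 2 of the 4 banded arrays were not well above background, and a second probe gave 0.19. Sri, the gene of sorcin, which binds the release channel, rose by 0.70 (SE 0.08).

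Ion channel genes fell more often than they rose. Of 22 potassium and sodium channel and transporter genes, 15 were called lower and 2 higher. Abcc9, the sulfonylurea receptor of the ATP-sensitive potassium channel, fell from 1.89, 2.08, 2.08 and 2.06 to 0.80, 0.94, 0.54 and 0.85, by 1.25 (SE 0.12, limma's adjusted p = 2.1e-08). The bicarbonate exchanger gene Slc4a3 fell by 1.26 (SE 0.12) and Kcnj3, a subunit of the acetylcholine-gated channel, by 0.97 (SE 0.16), with 3 banded arrays not well above background. Atp1b1, the beta subunit of the sodium pump, rose by 0.73 (SE 0.07), with all banded values above all sham values. Among 16 hormone and neurotransmitter receptor genes, 6 were called lower, 1 was called higher and 9 did not pass. Crhr2, the urocortin receptor, stood at 2.67, 2.90, 3.03 and 2.49 in sham and at 1.54, 1.33, 1.50 and 1.57 in banded ventricles. Its groups were separated by almost 1 log2 unit, and the fall was 1.29 (SE 0.12, limma's adjusted p = 6.1e-09). Agtr1a, an angiotensin II receptor, fell by 0.85 (SE 0.09), and Corin, the protease that activates atrial natriuretic peptide, by 0.84 (SE 0.10). The riser was Grk5, a kinase that desensitises such receptors, at 0.68 (SE 0.09).

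Cardiac transcription factor genes split, with 7 of 18 called lower and 4 higher. Hopx, a homeodomain cofactor that restrains serum response factor, fell from 2.31, 2.32, 2.28 and 2.37 to 0.69, 1.38, 0.95 and 1.11, by 1.29 (SE 0.11, limma's adjusted p = 2.1e-09). Mef2d fell by 0.83 (SE 0.08) and Tbx5 by 0.71 (SE 0.13), both factors that set cardiac gene expression. Sox9, a factor of matrix-forming cells, was not well above background on any sham array and was on all 4 banded ones. It was called higher (limma's adjusted p = 2.1e-05), and no fold is given for it. Intercalated disc and costamere genes also split, 11 lower and 8 higher of 27. Itgb1, the beta-1 integrin subunit that binds matrix, stood at 0.76, 0.76, 0.71 and 0.61 in sham and at 2.04, 1.87, 2.22 and 1.98 in banded ventricles. No other gene of the list rose as far: its rise was 1.32 (SE 0.09, limma's adjusted p = 2.9e-10), against 0.58 for Itgav, another integrin subunit. Dsg2, a desmosomal cadherin, fell by 0.76 (SE 0.11).

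Of 29 cytoskeleton genes, 24 rose and 2 fell, with a median of 0.68. Des, the muscle intermediate filament desmin, stood at 0.77, 0.77, 0.81 and 0.79 in sham and at 2.24, 1.82, 2.33 and 2.05 in banded ventricles. The sham values agreed within 0.05, and the rise was 1.32 (SE 0.11, limma's adjusted p = 2.1e-09). Krt18, an epithelial keratin, rose by 1.45 (SE 0.16), Anxa3, an annexin, by 1.45 (SE 0.11) and Tmsb4x, which holds actin monomers, by 1.36 (SE 0.08). The 2 that fell were both alpha-tubulin genes, Tuba4a by 0.83 (SE 0.14) and Tuba8 by 0.57 (SE 0.17), the latter with overlapping groups.

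Matrix genes were prominent among the largest rises, and Postn led all named genes. Postn, periostin, a matricellular protein of activated fibroblasts, stood at -3.38, -3.79, -3.63 and -3.91 in sham and at 1.19, 0.82, 1.22 and 0.72 in banded ventricles. More than 4 log2 units lay between the groups, and the rise of 4.67 (SE 0.34, limma's adjusted p = 3.2e-10) equals 25.4-fold. Of the 19 measured matricellular and injury matrix genes 17 rose and none was called lower, with a median of 1.01. Of the 14 that were well above background on all 8 arrays, and so did not enter through the banded arrays alone, 13 rose. Spp1, osteopontin, moved from -5.53, -5.44, -4.64 and -5.43 to -2.53, -3.19, -2.14 and -3.28 and Ccn2, connective tissue growth factor, from 0.71, 0.53, 0.69 and 0.58 to 2.99, 2.65, 3.05 and 2.91. Neither pair of groups overlapped; the rises were 2.47 (SE 0.21) and 2.27 (SE 0.18). Cilp, a cartilage layer protein, rose by 1.85 (SE 0.21) and was well above background on 2 of the 4 sham arrays. In the fit that leaves out both kinds of sham array, 12 of the 19 rose and none was called lower.

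Fibrillar collagens and the enzymes that process them showed 17 rises among 22 genes and no call in the other direction. Col3a1, the collagen of compliant fibres, stood at -3.40, -3.85, -3.29 and -4.00 in sham and at -0.06, -0.49, -0.15 and -0.67 in banded ventricles. Every banded value was above -0.7 and every sham value below -3.2, a rise of 3.29 (SE 0.22, limma's adjusted p = 1.7e-10). Col1a1, the collagen of stiff fibres, moved from -3.75, -3.94, -3.58 and -3.94 to -1.61, -2.01, -1.75 and -2.03, a rise of 1.95 (SE 0.15, limma's adjusted p = 5.1e-10); a second probe gave 0.87. Serpinh1, the collagen chaperone Hsp47, rose by 1.78 (SE 0.10) and Col5a2 by 1.75 (SE 0.18), from sham arrays of which 1 was well above background. Among basement membrane and other collagens, 16 of 22 rose. Col8a1, a short-chain collagen of vessel walls, moved from -0.35, -0.35, -0.32 and -0.39 to 2.76, 2.32, 3.01 and 2.53. Its sham values agreed within 0.1, and it rose by 3.01 (SE 0.23, limma's adjusted p = 7.2e-10). Col14a1 rose by 2.06 (SE 0.17), Col4a1 by 1.67 (SE 0.15) and Col16a1 by 1.45 (SE 0.11), and Lamb2, a laminin chain, fell by 0.45 (SE 0.06).

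Elastic fibre and crosslinking genes rose in 16 of 20 cases, and proteoglycan genes in 13 of 14. Ltbp2, which binds elastic microfibrils, stood at -0.77, -0.89, -0.69 and -0.96 in sham and at 1.76, 1.55, 2.17 and 1.77 in banded ventricles, a rise of 2.64 (SE 0.25, limma's adjusted p = 1.6e-08) without overlap. Lox, the enzyme that crosslinks collagen and elastin, was well above background on no sham array and on all 4 banded ones, at least 3.09-fold higher. Mfap4 and Mfap5, microfibril-associated proteins, rose by 1.80 (SE 0.15) and 1.86 (SE 0.17), with Mfap5 well above background on 2 sham arrays. Efemp1, a fibulin, fell by 0.60 (SE 0.15) as the exception and was well above background on 1 banded array. Of the small leucine-rich proteoglycans, Aspn rose by 1.84 (SE 0.10), Lum by 1.79 (SE 0.14) and Bgn by 1.01 (SE 0.12).

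Proteases and their inhibitors rose in 18 of 26 cases and fell in 5. Timp1, an inhibitor of metalloproteinases, stood at -0.85, -0.80, -0.50 and -0.78 in sham and at 2.38, 1.77, 2.67 and 1.81 in banded ventricles. The rise was 2.89 (SE 0.21, limma's adjusted p = 3.4e-10), and other Timp1 probes gave 1.39 and 1.32. Timp4, the inhibitor abundant in normal heart, moved the other way, from 1.83, 2.08, 1.78 and 2.04 to 1.03, 0.94, 0.80 and 1.14. The Timp4 groups did not overlap, and the fall was 0.96 (SE 0.12, limma's adjusted p = 4.6e-07). Serpinb1a, an inhibitor of neutrophil proteases, rose from -2.48, -2.28, -2.34 and -2.44 to 1.53, 1.38, 2.64 and 0.67. Its banded values spread over almost 2 log2 units, all of them above the sham values, and the rise was 3.94 (SE 0.30, limma's adjusted p = 6.1e-10). Mmp14, a membrane-bound metalloproteinase, rose by 1.49 (SE 0.17). Htra1, a secreted serine protease, fell by 0.77 (SE 0.06).

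Secreted signals rose with the matrix. Of 19 TGF-beta and BMP signalling genes 13 rose and 1 fell. Fstl1, a secreted follistatin-like protein, stood at -2.29, -2.78, -2.51 and -2.81 in sham and at 0.46, -0.09, 0.26 and 0.20 in banded ventricles, a rise of 2.80 (SE 0.18, limma's adjusted p = 8.8e-11). Of the ligands, Tgfb3 rose by 1.30 (SE 0.11), Tgfb2 by 0.94 (SE 0.09) and Gdf15, a stress-induced member of the family, by 1.67 (SE 0.21), from sham arrays of which 1 was well above background. Among growth factor genes 8 of 20 rose, 2 fell and 10 did not pass. Igf1 rose from -1.09, -1.11, -1.08 and -1.02 to 0.12, 0.03, 0.15 and -0.05, by 1.14 (SE 0.08, limma's adjusted p = 1.5e-10), and its binding protein gene Igfbp7 by 1.68 (SE 0.11). Hbegf, the heparin-binding EGF-like factor, rose by 1.06 (SE 0.12), and the vascular factors Vegfb and Vegfa fell by 0.48 (SE 0.07) and 0.21 (SE 0.09). The call for Vegfa was lost in 12 of 24 alternatives. When each array was centred on its median in place of loess, 3 of the 20 rose and 6 fell.

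Marker lists were read for the cell types of the ventricle. Fibroblast markers rose in 16 of 20 cases. Vim, vimentin, moved from -1.60, -1.75, -1.61 and -1.90 to 0.27, 0.08, 0.03 and -0.15, by 1.77 (SE 0.10, limma's adjusted p = 1.9e-11). S100a4 rose by 1.92 (SE 0.15), Meox1, a homeobox factor of activated fibroblasts, by 1.58 (SE 0.11), and Mgp, matrix Gla protein, by 2.08 (SE 0.16). Gsn, the actin-severing gelsolin, fell by 1.31 (SE 0.14). Of 19 markers of smooth muscle and pericytes, 12 rose and 3 fell. Cnn1, calponin, stood at -2.50, -2.64, -2.51 and -2.81 in sham and at 1.00, -0.16, 0.89 and 0.22 in banded ventricles, a rise of 3.10 (SE 0.18, limma's adjusted p = 2.6e-11). Myl9, a smooth muscle myosin light chain, rose by 2.29 (SE 0.15) and Tagln, SM22, by 1.59 (SE 0.10). Smtn, smoothelin, a marker of contractile smooth muscle, fell by 0.40 (SE 0.09), and Kcnj8, the pericyte potassium channel, by 0.28 (SE 0.07).

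Endothelial markers gave a mixed picture, with 11 of 25 called higher, 3 lower and 11 not passing, and a median of 0.17; with median centring in place of loess 3 rose and 7 fell. Pecam1, the endothelial adhesion molecule CD31, stood at 0.28, 0.19, 0.33 and 0.32 in sham and at 0.60, 0.53, 0.39 and 0.46 in banded ventricles. The groups did not overlap but nearly touched, and the rise was 0.21 (SE 0.08, limma's adjusted p = 0.03), a call lost in 11 of 24 alternatives. Cd34 rose by 1.01 (SE 0.09), and Apln and its receptor gene Aplnr by 0.93 (SE 0.10) and 0.91 (SE 0.14). Aqp1, the water channel of capillaries, fell by 0.41 (SE 0.10), with overlapping groups, and Vwf, von Willebrand factor, by 0.32 (SE 0.10).

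Of 24 markers of macrophages and monocytes, 20 rose and none was called lower. Lyz2, lysozyme M, stood at -0.27, -0.44, -0.32 and -0.54 in sham and at 1.42, 1.22, 1.34 and 1.06 in banded ventricles, a rise of 1.65 (SE 0.08, limma's adjusted p = 3.8e-12), against 0.44 by a second probe. Adgre1, the antigen F4/80, moved from -0.13, -0.48, -0.26 and -0.15 to 1.23, 0.83, 1.03 and 0.86, by 1.24 (SE 0.10, limma's adjusted p = 2e-09). For both genes every banded value was above every sham value. Ms4a7 rose by 1.52 (SE 0.11) and Trem2, a lipid receptor of macrophages, by 1.31 (SE 0.13). Of 4 measured lymphocyte markers 3 rose, led by Coro1a and Ptprc (CD45), genes of leukocytes in general, at 0.64 (SE 0.09) and 0.57 (SE 0.08). Of 5 neutrophil and mast cell markers 2 rose, S100a9 by 0.69 (SE 0.12) and Mpo by 0.42 (SE 0.10); under median centring 0 rose and 2 fell. Red cell markers showed 1 rise among 5 genes, atrial markers 2 rises and 1 fall among 7, and adipocyte markers 5 small rises among 6, of at most 0.54. Under median centring the majorities of all 3 turned: 0 red cell markers rose and 4 fell, 0 atrial markers rose and 2 fell, and 0 adipocyte markers rose and 1 fell. Of 11 skeletal muscle markers 3 rose and 3 fell, and of 2 nerve and glia markers 2 rose. Xist, the X-linked RNA of female cells, was well above background on all 4 banded arrays, at -0.32 to 0.13. It was also so on the 2 sham arrays without Y-linked transcripts, at -0.02 and -0.30. On the 2 sham arrays with Y-linked transcripts it stood at -3.27 and -3.26, and the difference of the group means was 1.63. The part of the sexes in the other differences was not tested beyond leaving those arrays out.

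Of 18 chemokine and cytokine genes 14 rose and 1 fell. Ccl8, a chemokine for monocytes, was well above background on no sham array and on all 4 banded ones, at least 2.32-fold higher. Ccl2, which draws monocytes through CCR2, moved from -0.04, -0.07, -0.09 and 0.02 to 1.08, 0.77, 1.59 and 0.52, a rise of 1.04 (SE 0.15, limma's adjusted p = 3.6e-06). Tnfrsf12a, the receptor of the cytokine TWEAK, rose by 1.42 (SE 0.12), and Cxcl12, a chemokine that retains stem cells, was called in opposite directions by its probes, at -0.35 and 0.34. All 13 measured complement genes rose. Clu, clusterin, an extracellular chaperone that also blocks the complement attack complex, stood at 2.88, 2.67, 2.83 and 2.58 in sham and at 4.90, 5.48, 5.48 and 5.42 in banded ventricles. Its rise of 2.58 (SE 0.27, limma's adjusted p = 5.8e-08) exceeded those of the other 12, of which the next were Cfd, factor D, at 0.80 (SE 0.17) and Masp1 at 0.74 (SE 0.14). Antigen presentation genes rose in 8 of 14 cases, including the class II genes Cd74 at 1.14 (SE 0.17), H2-DMb1 at 1.02 (SE 0.12) and H2-Ab1 at 0.88 (SE 0.20). Interferon-induced genes rose in 10 of 25 cases and 14 did not pass. Ifi27 rose by 1.82 (SE 0.14), though its second probe gave 0.11, while Isg15, Ifit3 and Rsad2 rose by 0.57 (SE 0.11), 0.56 (SE 0.13) and 0.57 (SE 0.13).

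The list medians were also read on each array. The median of the matricellular list lay between 0.82 and 1.23 above the sham mean on the 4 banded arrays, and the median of the macrophage list between 0.66 and 0.93. All 4 banded arrays lay above all 4 sham arrays for both lists.

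**Figure D3:**
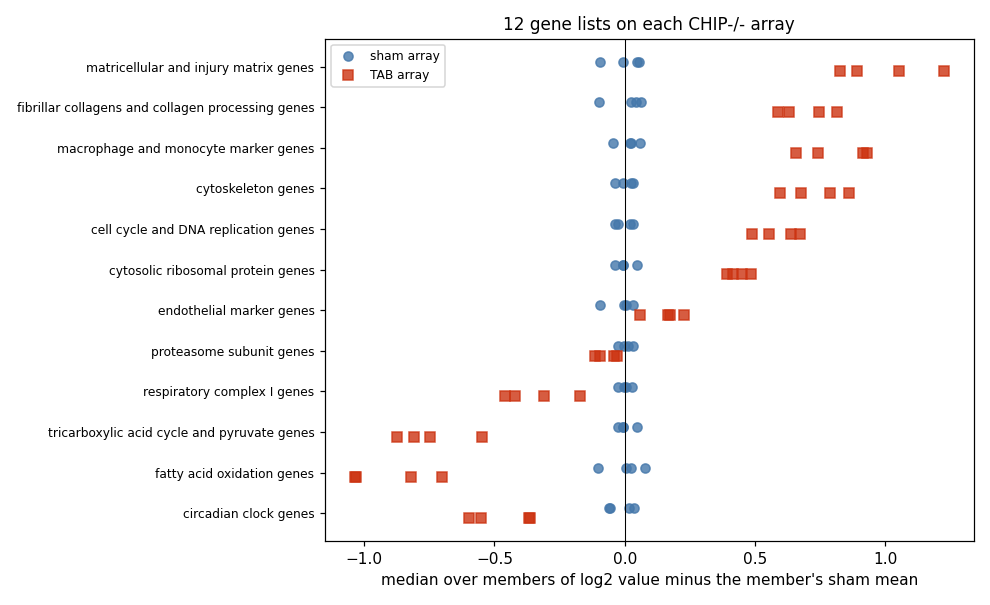
For each of 12 gene lists, points give the median over members of the log2 value minus the member's mean on the sham arrays, for the 4 sham (blue circles) and 4 TAB (red squares) arrays of CHIP-/- ventricle. The sham arrays lie near 0 by construction; the TAB arrays of the matrix and macrophage lists lie to the right and those of the fuel lists to the left, from -1.04 to -0.70 for fatty acid oxidation.

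Genes of mitochondrial fuel use fell in nearly every measured case. Of 29 fatty acid oxidation genes 27 fell and none was called higher, with a median of -0.90. Acadm, medium-chain acyl-CoA dehydrogenase, stood at 2.01, 2.09, 2.05 and 1.93 in sham and at 0.53, 0.92, 0.55 and 0.75 in banded ventricles. The groups lay 1 log2 unit apart, and the fall of 1.33 (SE 0.09, limma's adjusted p = 1.5e-10) equals a 2.52-fold lower level. Cpt1b, the muscle enzyme that commits fatty acids to mitochondria, moved from 2.10, 2.15, 2.10 and 2.03 to 1.32, 1.29, 0.95 and 1.37, by -0.86 (SE 0.08, limma's adjusted p = 2.3e-08). Hadh, the short-chain hydroxyacyl-CoA dehydrogenase, fell by 1.49 (SE 0.18), Ech1, a dienoyl-CoA isomerase, by 1.44 (SE 0.11) and Acaa2, a thiolase, by 1.41 (SE 0.12). With both kinds of sham array left out, 23 of the 29 fell. Genes of fatty acid uptake and storage split, 10 lower and 7 higher of 24. Ces1d, a lipase-like carboxylesterase, fell from 0.90, 1.24, 0.99 and 1.04 to -1.54, -0.32, -1.24 and -0.80, by 2.02 (SE 0.17, limma's adjusted p = 2.1e-09), with 1 banded array not well above background. Dgat2, which makes triglyceride, fell by 1.55 (SE 0.15) and the fatty acid transporter gene Slc27a1 by 1.15 (SE 0.09). Angptl4, an inhibitor of lipoprotein lipase, and Scd2, a desaturase, rose by 0.79 (SE 0.13) and 0.58 (SE 0.10).

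Of 28 tricarboxylic acid cycle and pyruvate genes 26 fell and none was called higher, with a median of -0.79. Sdha, the catalytic subunit of succinate dehydrogenase, stood at 2.09, 2.05, 2.17 and 2.10 in sham and at 0.48, 1.01, 0.56 and 0.63 in banded ventricles, a fall of 1.43 (SE 0.10, limma's adjusted p = 2.3e-10); 2 other Sdha probes gave -0.96 and -0.18. Idh2, mitochondrial isocitrate dehydrogenase, fell by 1.13 (SE 0.08) and Ogdh, of the oxoglutarate dehydrogenase complex, by 1.02 (SE 0.10). Pdk4, a kinase that switches off pyruvate dehydrogenase, moved from 0.41, 1.11, 1.17 and -0.62 to -0.37, -0.33, -0.12 and -0.68. Its sham values spread over almost 2 log2 units and overlapped with the banded ones, and the difference was -0.89 (SE 0.32, limma's adjusted p = 0.027). Branched-chain amino acid breakdown fell in 18 of 19 genes. Bckdha and Bckdhb, the subunits of the enzyme that commits these amino acids to breakdown, fell by 1.07 (SE 0.07) and 1.09 (SE 0.09). Of 5 ketone body genes 3 fell, among them Oxct1, an enzyme of ketone use in muscle, by 0.38 (SE 0.07).

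The medians of respiratory chain genes lay nearer to 0. Of 42 complex I genes 30 fell and none was called higher, with a median of -0.32; of 37 genes of complexes II to V, 25 fell and 2 rose, with a median of -0.33. Ndufs1, the largest core subunit of complex I, stood at 2.07, 2.03 and 2.09 on 3 sham arrays and at 1.14, 1.39, 1.10 and 1.24 after banding, a fall of 0.84 (SE 0.08, limma's adjusted p = 1.8e-08). Uqcrfs1, the Rieske protein of complex III, fell by 0.70 (SE 0.09) and Atp5a1, of the ATP synthase, by 0.68 (SE 0.09). The pair that rose comprised Atpif1, the inhibitor of the ATP synthase, at 0.67 (SE 0.07) by this probe and -0.18 by a second, and Cox8a at 0.40 (SE 0.05). With both kinds left out, 16 of the 42 complex I genes fell. Mitochondrial ribosomal protein genes fell in 47 of 77 cases and rose in 4, with a median of -0.26.

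**Figure D4:**
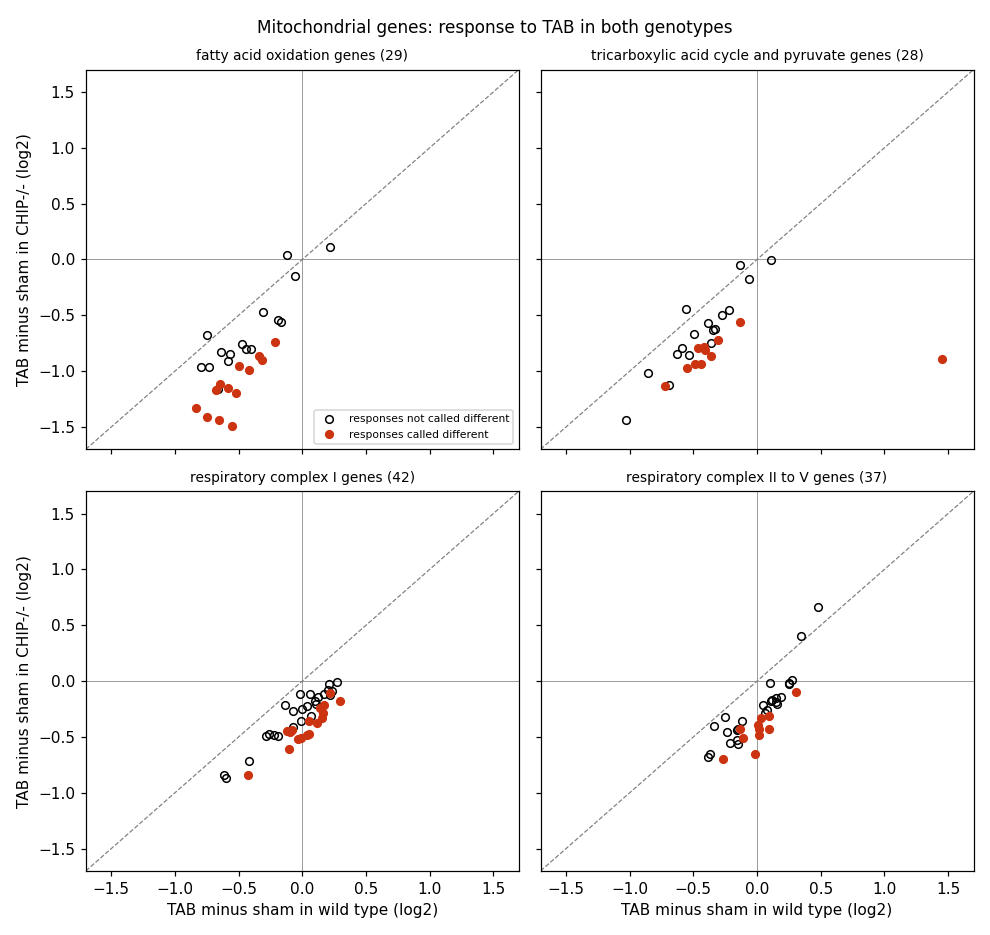
Each point is 1 gene of the named list, with its log2 difference between TAB and sham in wild type (horizontal) and in CHIP-/- ventricle (vertical); filled red points are genes whose 2 responses were called different, and the dashed line marks equal responses. Most points lie below the line, and many respiratory chain genes lie near 0 in wild type and below 0 in CHIP-/-.

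Of 22 PGC-1 and metabolic nuclear receptor genes 15 fell and 1 rose. Ppargc1a, the coactivator PGC-1alpha that drives mitochondrial gene expression, stood at 1.34, 1.42, 1.38 and 1.43 in sham and at 0.35, 0.59, 0.38 and 0.60 in banded ventricles. The sham values agreed within 0.1, and the fall was 0.91 (SE 0.09, limma's adjusted p = 4e-08). Klf15, a factor for fat and amino acid use, fell by 1.41 (SE 0.15) (-0.38 by a second probe) and Perm1, a muscle partner of PGC-1, by 0.97 (SE 0.08). NAD metabolism genes fell in 6 of 11 cases, with 1 rise among the largest of the whole comparison. Nmrk2, the muscle kinase that turns nicotinamide riboside into an NAD precursor, stood at 0.91, 1.04, 0.54 and 1.35 in sham and at 5.22, 5.20, 5.48 and 5.37 in banded ventricles. Its banded values agreed within 0.3, and the rise of 4.36 (SE 0.26, limma's adjusted p = 3.8e-11) equals 20.5-fold. Nampt, the enzyme of the alternative route from nicotinamide, fell from 1.89, 2.34, 2.10 and 2.05 to 0.74, 1.14, 0.72 and 1.12, by 1.16 (SE 0.12, limma's adjusted p = 4.9e-08), and Nnt, the mitochondrial transhydrogenase, by 1.10 (SE 0.08).

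Glucose genes moved both ways, 10 up and 10 down of 26, or 1 up and 16 down under median centring. Slc2a4, the insulin-dependent transporter GLUT4, stood at 3.13, 3.11, 3.05 and 3.07 in sham and at 1.78, 2.28, 1.83 and 2.16 in banded ventricles, a fall of 1.07 (SE 0.09, limma's adjusted p = 2.4e-09). Slc2a1, the constitutive transporter GLUT1, rose by 0.39 (SE 0.07), with banded values of 0.00, -0.14, -0.02 and 0.13 against sham values of -0.43, -0.45, -0.40 and -0.31. Pfkp, the platelet form of phosphofructokinase, rose by 0.97 (SE 0.10), and Pfkfb1, which makes that enzyme's activator, fell by 1.45 (SE 0.13), as did Pygm, muscle glycogen phosphorylase, by 0.91 (SE 0.10). AMPK genes gave 5 falls and 2 rises among 11: Prkaa2, the catalytic subunit of muscle, fell by 0.64 (SE 0.09), and the beta subunit gene Prkab2 rose by 0.52 (SE 0.09). Creatine kinase and adenine nucleotide genes gave 6 falls and 4 rises among 17. Mitochondrial Ckmt2 fell by 0.50 (SE 0.10) and brain-type Ckb rose by 0.48 (SE 0.07).

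CHIP acts on clients of Hsp70 and Hsp90, so the chaperones were examined as a group. Of the 38 cytosolic chaperone and cochaperone genes, 21 did not pass the test, 11 fell and 6 rose. The 44.7% that were called lay near the 47.3% of all features. Hspa8, the constitutive Hsc70, stood at 0.48, 0.60, 0.37 and 0.47 in sham and at 0.56, 0.83, 0.56 and 0.36 in banded ventricles, with a difference of 0.10 (SE 0.10, limma's adjusted p = 0.47). Hspa1a, the inducible Hsp70, stood at -1.52, -1.35, -1.70 and -1.24 in sham ventricles, and its banded values ran from -1.40 to 0.56, so that 1 lay within the sham range. The difference was 1.01 (SE 0.57, limma's adjusted p = 0.15). Hsp90aa1, the inducible Hsp90, rose from -1.03, -0.93, -1.17 and -0.94 to -0.10, 0.03, 0.08 and -0.23, by 0.96 (SE 0.13, limma's adjusted p = 2.1e-06). Fkbp4, an Hsp90 cochaperone, fell by 1.17 (SE 0.11), and Unc45b, which folds myosin, by 0.77 (SE 0.07). Hspb1, Hsp27, rose by 0.74 (SE 0.11), whereas the cardiac small heat shock protein gene Hspb7 fell by 0.16 (SE 0.06, limma's adjusted p = 0.049) with overlapping groups, a call lost in 15 of 24 alternatives. Of 31 endoplasmic reticulum genes, 17 rose and 5 fell, a majority that turned under median centring, with 4 rises and 8 falls. Pdia3, a disulfide isomerase, and Ppib, a prolyl isomerase for collagen, rose by 0.90 (SE 0.06) and 0.90 (SE 0.07). Herpud1, a part of the pathway that clears misfolded proteins from the reticulum, fell from 2.07, 2.42, 2.21 and 2.01 to 0.55, 1.23, 0.26 and 0.72, by 1.49 (SE 0.15, limma's adjusted p = 2.2e-08).

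Of 32 ubiquitin ligase and ubiquitin genes 18 fell and 4 rose. Asb15 and Asb14, muscle members of the ankyrin repeat and SOCS box family that supply substrates to ubiquitin ligases, both fell. Asb15 moved from 3.21, 3.30, 3.49 and 3.40 to 1.56, 1.77, 1.58 and 1.89, a fall of 1.65 (SE 0.12, limma's adjusted p = 3.5e-10), and Asb14 fell by 1.49 (SE 0.14). Rnf207, a heart RING finger protein, fell from 2.06, 2.28, 2.40 and 2.31 to 0.76, 0.18, 0.55 and 0.29, by 1.82 (SE 0.12, limma's adjusted p = 7.9e-11), with 2 banded arrays not well above background. Trim63, MuRF1, stood at 2.99, 2.93, 3.03 and 3.03 in sham and at 2.10, 2.26, 2.13 and 2.26 in banded ventricles, a fall of 0.81 (SE 0.06, limma's adjusted p = 3.2e-10). Fbxo32, atrogin-1, fell by 0.53 (SE 0.11, limma's adjusted p = 0.00027) with overlapping groups. Of 41 proteasome subunit genes, 23 did not pass, 12 fell and 6 rose, between -0.55 and 0.41. Autophagy genes gave 8 falls and 3 rises among 24, with Pink1, the kinase that marks damaged mitochondria, falling by 1.32 (SE 0.11, limma's adjusted p = 1.9e-09). Of 28 lysosome genes, 19 rose and 5 fell, or in 4 and 8 under median centring. Ctss, cathepsin S of macrophages, moved from -0.19, -0.34, -0.20 and -0.25 to 2.05, 1.60, 2.05 and 1.56, by 2.06 (SE 0.13, limma's adjusted p = 7e-11), and Ctsb, cathepsin B, by 0.83 (SE 0.07), while Psap, the precursor of the saposins, fell by 0.64 (SE 0.05).

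Cytosolic ribosomal protein genes rose in 68 of 74 cases, with a median of 0.44, and 1 fell. This rise rested on the scaling: under median centring 2 rose and 10 fell, with a median of -0.14 against -0.22 for all features, and in the heart channel alone 29 rose and 2 fell. Many of these genes have near-identical copies in the genome, so a probe may read more than 1. The gene that fell was Rpl3l, the striated muscle paralogue of Rpl3, which stood at 3.06, 3.13, 3.20 and 3.23 in sham and at 1.06, 1.87, 1.10 and 1.25 in banded ventricles. Its fall of 1.84 (SE 0.13, limma's adjusted p = 2.6e-10) equals a 3.57-fold lower level. Rpl3 itself rose from -1.89, -1.98, -1.99 and -1.97 to -1.10, -1.28, -1.03 and -1.15, by 0.82 (SE 0.06, limma's adjusted p = 4.4e-10). Both differences were without overlap, and the probes cannot be set against each other by level. Rpl39 rose by 1.01 (SE 0.07) and Rplp1 by 0.82 (SE 0.07). Of 20 aminoacyl-tRNA synthetase genes 12 did not pass, 7 fell and 1 rose, so 40% were called, against 47.3% of all features. Antioxidant and glutathione genes gave 16 falls and 10 rises among 40: the glutathione transferase gene Gstm1 fell by 1.11 (SE 0.08), and Gpx3, a secreted peroxidase, and Mt2, a metallothionein, rose by 1.32 (SE 0.14) and 1.23 (SE 0.19).

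Cell cycle and DNA replication genes rose in 35 of 41 cases and none was called lower, with a median of 0.60. Of the 28 that were well above background on all 8 arrays, 23 rose. Mki67 stood at -2.58, -2.73, -2.88 and -3.21 in sham and at -0.67, -1.23, -0.84 and -1.39 in banded ventricles, a rise of 1.81 (SE 0.17, limma's adjusted p = 1.2e-08). Birc5, survivin, which acts in cell division, rose by 1.62 (SE 0.15), Hmgb2 by 1.47 (SE 0.11) and Tyms, thymidylate synthase, by 1.37 (SE 0.12). Immediate early genes rose in 12 of 20 cases. Junb moved from 0.30, 0.02, 0.12 and -0.14 to 1.04, 0.75, 1.57 and 0.80, by 0.97 (SE 0.15, limma's adjusted p = 1.3e-05), Egr1 by 0.73 (SE 0.15) and the phosphatase gene Dusp6 by 0.95 (SE 0.09), while Dusp1, another phosphatase, fell by 0.41 (SE 0.11).

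Of 14 circadian clock genes 8 fell and 1 rose. Dbp, a clock output factor, stood at 3.51, 3.34, 3.41 and 3.09 in sham and at 1.85, 2.32, 1.26 and 2.55 in banded ventricles. The banded values spread over more than 1 log2 unit, all below the sham values, and the fall was 1.34 (SE 0.21, limma's adjusted p = 1.6e-05). Its relatives Tef and Hlf fell by 1.23 (SE 0.16) and 1.06 (SE 0.13). Ciart, whose E-boxes are shown above, was well above background on all 4 sham arrays and on no banded one, at least 2.21-fold lower. Clock rose by 0.25 (SE 0.10) with overlapping groups, a call lost in 13 of 24 alternatives. The sources used here do not give the time of day at which tissue was taken. Among 15 glucocorticoid responsive genes 7 fell and 3 rose.

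Large falls also occurred in genes of no list. Ift81, a component of the transport machinery of cilia, stood at 4.00, 4.19, 3.90 and 3.82 in sham and at 1.23, 2.01, 1.71 and 1.82 in banded ventricles. The groups lay more than 1.5 log2 units apart, and the fall of 2.29 (SE 0.14, limma's adjusted p = 3.5e-11) equals a 4.87-fold lower level. Ano10, of the anoctamin family, fell by 2.21 (SE 0.18), Gdap10 by 2.15 (SE 0.12) and Yipf7 by 1.70 (SE 0.11), each without overlap.

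The banding response of CHIP-/- ventricle was compared with that of wild-type ventricle by an interaction term, the CHIP-/- difference minus the wild-type difference. The genotypes share no sham array, but each of the 4 groups lay on its own slide, so slide cannot be told apart from this difference either. In wild type 3958 features were called (35.8%), and 78.4% of these were called the same way in CHIP-/-; conversely, 59.3% of the CHIP-/- calls were called the same way in wild type. The interaction called 603 features (5.45%), of which 314 were higher (2.84%) and 289 lower (2.61%) in the CHIP-/- response. For 275 of the 603, both genotypes were called in the same direction and the difference was larger in CHIP-/-; for 27 they were called in opposite directions. The absolute difference was larger in CHIP-/- for 62.7% of features, with medians of 0.20 and 0.16. Without the sham arrays with Y-linked transcripts the count of 603 falls to 98, without those with high Myl7 to 437, and without both to 4. Under median centring it falls to 176. Among the genes named here as different between the genotypes, none changed direction in these fits.

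**Figure D5:**
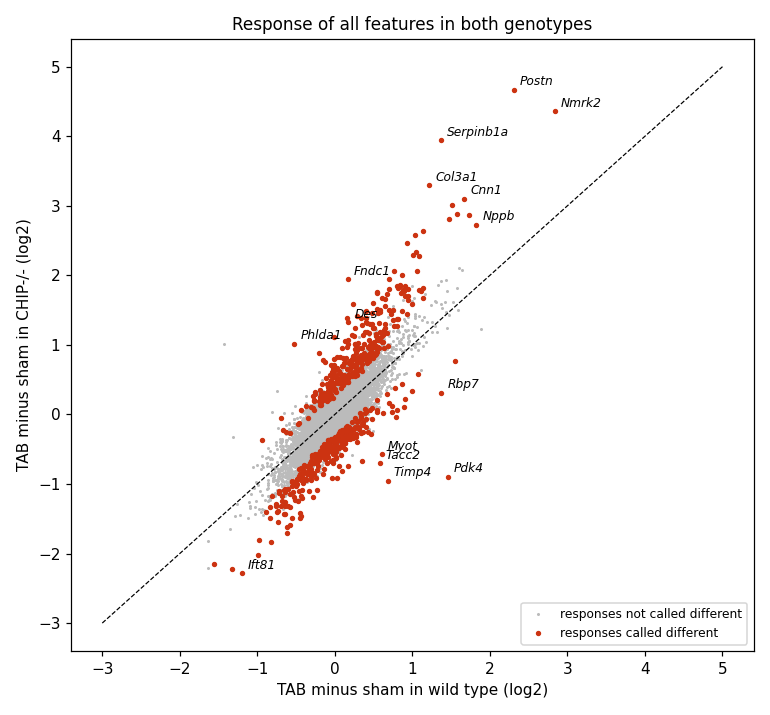
Each point is 1 of 11058 features, with its log2 difference between TAB and sham in wild type (horizontal) and in CHIP-/- ventricle (vertical); red points are the 603 whose responses were called different, and the dashed line marks equal responses. Postn, Serpinb1a, Col3a1 and Fndc1 lie above the line, and Pdk4, Timp4, Tacc2, Myot and Rbp7 below it.

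The CHIP-/- response was higher for many matrix and macrophage genes. The interaction was positive and called for 10 of 20 elastic fibre genes, 9 of 19 matricellular genes, 9 of 22 fibrillar collagen genes and 11 of 24 macrophage genes, and negative and called for none of them. Without the sham arrays with Y-linked transcripts these counts were 2, 2, 4 and 3, and under median centring 6, 7, 8 and 5. Postn rose by 4.67 in CHIP-/- and by 2.31 in wild type, a difference of 2.36 (SE 0.47, limma's adjusted p = 0.0057). Col3a1 rose by 3.29 and 1.22, which differ by 2.07 (SE 0.32, limma's adjusted p = 0.00072). Fndc1, a fibronectin domain protein, rose from -2.23, -2.31, -2.20 and -2.51 to -0.39, -0.13, -0.38 and -0.58 in CHIP-/-, against 0.17 in wild type. That is an interaction of 1.78 (SE 0.22, limma's adjusted p = 0.00015). Serpinb1a differed by 2.57 (SE 0.42, limma's adjusted p = 0.0013), Col16a1 by 0.98, Aspn by 1.00 and Lyz2 by 0.70, the last against 0.22 by a second probe (limma's adjusted p = 0.51). Of the lysosome genes 9 of 28 were called (3 without the sham arrays with Y-linked transcripts, 0 without both kinds and 1 under median centring). Among them, Ctsb rose by 0.83 in CHIP-/- and was 0.07 in wild type, with an interaction of 0.75 (SE 0.10, limma's adjusted p = 0.00018) and of 0.32 by a second probe (limma's adjusted p = 0.45). Desmin belongs here too: Des rose by 1.32 in CHIP-/- and was 0.17 in wild type, and these differ by 1.15 (SE 0.16, limma's adjusted p = 0.00035). Without the sham arrays with Y-linked transcripts, the difference for Postn was 1.75 and no longer called (limma's adjusted p = 0.057), and the others named in this paragraph were still called, such as Col3a1 at 1.57 (limma's adjusted p = 0.02) and Des at 1.04 (limma's adjusted p = 0.0068). Without both kinds of sham array none of them was called.

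The CHIP-/- response was lower for many fuel and respiratory chain genes. The interaction was negative and called for 17 of 42 complex I genes, 11 of 37 genes of complexes II to V, 13 of 29 fatty acid oxidation genes and 11 of 28 tricarboxylic acid cycle genes, and positive and called for none of these. Without the sham arrays with Y-linked transcripts these counts were 0, 0, 1 and 1, and under median centring 0, 1, 5 and 1. The median response of the complex I genes was -0.32 in CHIP-/- and 0.04 in wild type, where 7 fell and 9 rose. Ppargc1a fell by 0.91 in CHIP-/- and was -0.04 in wild type, with an interaction of -0.88 (SE 0.13, limma's adjusted p = 0.00072). Pdk4 was -0.89 in CHIP-/- and 1.45 in wild type, so the genotypes were called in opposite directions, with an interaction of -2.35 (SE 0.46, limma's adjusted p = 0.0048). Timp4 likewise was -0.96 and 0.68, an interaction of -1.64 (SE 0.16, limma's adjusted p = 1.2e-05). Tacc2, a centrosome-associated coiled-coil protein, was -0.71 and 0.58, and Myot, the Z-disc protein myotilin, -0.57 and 0.60. Their interactions were -1.29 and -1.17. Among endothelial markers the interaction was negative and called for 8 of 25. That count was 3 without the sham arrays with Y-linked transcripts, 5 without those with high Myl7, 0 without both kinds and 2 under median centring. Fabp4, a fatty acid binding protein of capillaries, rose by 0.77 in CHIP-/- and 1.55 in wild type. Rbp7, a retinol binding protein, was 0.31 in CHIP-/- (limma's adjusted p = 0.069) and 1.37 in wild type, an interaction of -1.06 (SE 0.20, limma's adjusted p = 0.0031). Without the sham arrays with Y-linked transcripts, Rbp7 was no longer called (-0.91, limma's adjusted p = 0.064), while Ppargc1a, Pdk4, Timp4, Tacc2, Myot and Fabp4 were. Without both kinds of sham array, Timp4 was still called, at -1.42 (limma's adjusted p = 0.038), and the other 6 were not.

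Ribosomal protein and cell cycle genes differed between the genotypes in few members, unlike some of the other lists. Among 24 fatty acid uptake and storage genes the interaction was called for 0 upward and 7 downward. It was called for 6 upward and 2 downward of 26 protease and inhibitor genes, and for 4 and 2 of 26 glucose genes. The share of all features was 5.45%. Ribosomal protein genes rose in 68 and 68 of 74 cases in CHIP-/- and wild type, with medians of 0.44 and 0.46, and the interaction was called for 1 of them upward and 2 downward. For cell cycle genes it was called for 1 of 41 upward and 0 downward. A difference that misses the threshold does not show equal responses. Phlda1, a protein with a pleckstrin homology-like domain, was 1.02 in CHIP-/- and -0.53 in wild type, an interaction of 1.54 (SE 0.25, limma's adjusted p = 0.00099). It remained called without both kinds of sham array, at 2.10 (limma's adjusted p = 0.00017). For the inducible Hspa1a the difference between the genotypes was 2.44 with limma's adjusted p = 0.083, and without the sham arrays with high Myl7 it was 3.97 and called (limma's adjusted p = 0.00061). It was not called without the sham arrays with Y-linked transcripts (1.97, limma's adjusted p = 0.3) or without both kinds (3.92, limma's adjusted p = 0.12).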

How the data were processed

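Heart RNA (Cy5) and reference RNA (Cy3) were hybridised to two-colour Agilent arrays. Spot intensities were deposited as read with Feature Extraction 9.1.3.1 from scans of a GenePix 4000B scanner, per the file headers. The deposited log2 ratio table correlated with each array's recomputed ratios at 0.9998 or more and its column medians lay between -0.03 and 0.03, so its scale is log2 and its direction heart over reference; 14298 of its 14322 rows were matched, and no source used here states its normalization. The files of the CHIP-/- TAB arrays hold 3 significant digits.

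Mean intensities were background-corrected (normexp, offset 50) and normalized by loess within each array in limma 3.58.1 (R 4.3.3). Control spots and outlier-marked spots were left out. A probe was kept where the heart channel was well above background on at least 4 of the 16 arrays with at least 15 values, which left 14908 of 41174 probes, and each gene is represented by its brightest probe, 11058 features in all. Of the probes, 22951 were named by accession, 6659 by symbol and 3109 by synonym through the RefSeq table (GRCm38.p6), and 8455 kept the file's name. Of 2914 symbols with several kept probes, 38 had probes called in opposite directions. One model with a mean for each of the 4 groups was fitted to the 16 arrays (lmFit, eBayes with an intensity trend), with Benjamini-Hochberg adjustment over all features for each contrast. "At least N-fold" compares, in the heart channel, the bright group's mean with the higher of the dim probe's own signal and the lowest signal well above background, and is open to dye bias, since no dyes were swapped. On simulated data with 11058 features and the CHIP-/- comparison, 86% of changes of 0.5 and 98% of changes of 1 on the log2 scale were recovered, with 9 false calls among 193. The simulation changed 200 features, far fewer than were called in the data. Its noise was independent between arrays, without differences of slide, sex or atrial tissue.

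Replicate numbers do not pair the arrays: same-numbered deviations correlated at -0.03 to 0.03. The gene lists and members were chosen with earlier results of these data known. Genes named are the largest changes overall and in each list, up to 2 exceptions per list, the largest differences between genotypes, and a fixed set of cardiac genes. Tnnt2, Myl7, Fhl1 and Per1 were named after their values were seen, and some genes that the rule takes are not reported here. Alternatives changed the normalization, background, signal, filter, probe rule, variance model and arrays.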

Additional observations from a re-analysis of the deposited data

Results flagged for a closer look

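For 90 of the 199 genes named above with values, the banding responses of CHIP-/- and wild-type ventricle differed by the interaction test in limma, 53 with a higher and 37 with a lower value in CHIP-/-. Of all 11058 features, 603 were called (5.45%). Many of the named genes were chosen for a large CHIP-/- change or a large difference between genotypes. The count of 90 therefore does not measure how often the genotypes differ. The numbers in parentheses are the CHIP-/- difference minus the wild-type difference on the log2 scale. Among heart muscle, channel and cytoskeleton genes, the CHIP-/- response was higher for Des (1.15), Nppa (1.14), Nppb (0.90), Krt18 (0.89), Itgb1 (0.75), Grk5 (0.47) and Atp1b1 (0.46), and lower for Hrc (-0.83), Tnni3 (-0.63), Kcnj8 (-0.53) and Hopx (-0.53). Among matrix and protease genes, the CHIP-/- response was higher for Serpinb1a (2.57), Postn (2.36), Col3a1 (2.07), Spp1 (1.54), Col8a1 (1.50), Ltbp2 (1.50), Timp1 (1.31), Col14a1 (1.29), Col1a1 (1.25), Ccn2 (1.19), Mfap4 (1.10), Lox (1.00), Aspn (1.00), Col16a1 (0.98), Lum (0.92), Mmp14 (0.91), Col5a2 (0.90), Serpinh1 (0.89) and Bgn (0.64), and lower for Timp4 (-1.64). Among secreted signals, cell markers and immune genes, the CHIP-/- response was higher for Clu (1.54), Cnn1 (1.44), Fstl1 (1.33), Myl9 (1.28), Ccl8 (1.10), Gdf15 (1.02), Ms4a7 (0.98), Trem2 (0.85), Tgfb3 (0.82), Adgre1 (0.73), Lyz2 (0.70), Ifi27 (0.68), H2-DMb1 (0.56), Igfbp7 (0.54), Igf1 (0.52) and Tgfb2 (0.48), and lower for Fabp4 (-0.78), Gsn (-0.66), Aqp1 (-0.54) and Cxcl12 (-0.37). Among fuel, respiratory chain and other metabolic genes, the CHIP-/- response was higher for Nmrk2 (1.52), Prkab2 (0.63) and Pfkp (0.47), and lower for Pdk4 (-2.35), Ces1d (-1.02), Hadh (-0.94), Ppargc1a (-0.88), Dgat2 (-0.81), Ech1 (-0.79), Acaa2 (-0.66), Nnt (-0.64), Cpt1b (-0.52), Acadm (-0.50), Slc2a4 (-0.47), Perm1 (-0.46), Bckdhb (-0.45), Bckdha (-0.43), Uqcrfs1 (-0.43), Ndufs1 (-0.42) and Idh2 (-0.41). Among the remaining genes, the CHIP-/- response was higher for Fndc1 (1.78), Phlda1 (1.54), Ctss (1.00), Gpx3 (0.90), Ctsb (0.75), Hsp90aa1 (0.67), Pdia3 (0.42) and Rpl3 (0.33), and lower for Tacc2 (-1.29), Myot (-1.17), Yipf7 (-1.08), Ift81 (-1.08), Rbp7 (-1.06), Herpud1 (-1.04), Rpl3l (-1.02), Asb14 (-0.65), Gdap10 (-0.59), Pink1 (-0.56) and Gstm1 (-0.39). Of these, 27 were still called without the sham arrays with Y-linked transcripts, 69 without those with high Myl7 and 4 without both kinds.

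In 12 of 382 groups of 4 values, 1 array stood apart by Dixon's ratio, its gap to the nearest value over the range of the group, where chance marks about 1 group in 20. With the ratio and then the log2 values, these were Clu in TAB replicate 1 (0.895, at 4.90 against a nearest value of 5.42), Abcc9 in sham replicate 1 (0.884, at 1.89 against a nearest value of 2.06), Agtr1a in sham replicate 2 (0.833, at 1.30 against a nearest value of 1.46), Spp1 in sham replicate 3 (0.889, at -4.64 against a nearest value of -5.43), Tgfb3 in TAB replicate 3 (0.879, at 0.64 against a nearest value of 0.26), Aplnr in TAB replicate 2 (0.843, at 0.15 against a nearest value of 0.60), Ifi27 in TAB replicate 4 (0.881, at 2.42 against a nearest value of 2.93), Ogdh in TAB replicate 2 (0.875, at 1.54 against a nearest value of 1.19), Cox8a in TAB replicate 3 (0.953, at -0.47 against a nearest value of -0.34), Ctsb in sham replicate 4 (0.877, at 0.33 against a nearest value of 0.45), Phlda1 in TAB replicate 1 (0.902, at 1.17 against a nearest value of 0.92) and Tef in sham replicate 1 (0.851, at 1.94 against a nearest value of 2.06).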

How the results depend on the processing

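The direction of the CHIP-/- response was stable for the named genes, with the exceptions given here. The calls for the difference between the genotypes were not stable. Counts are given as features called higher and lower in CHIP-/-, then features called for the difference between the responses (reported: 2654, 2574 and 603). Centring each array on its median in place of loess gave 697, 4995 and 176 and turned 5 named genes: Stub1 at -0.37 (limma's adjusted p = 0.017), Hspa8 at -0.52 (limma's adjusted p = 0.0014), Pdlim5 at -0.066, Cox8a at -0.19 and Rbp7, not called in either fit, at -0.11. This alternative leaves in each array the dependence of the ratio on brightness that loess takes out; the cause of the turned calls was not tested. The count for the difference was 306 with Feature Extraction's processed signals, 400 with no filter on dim probes and 390 with no intensity trend. Without the sham arrays with Y-linked transcripts it was 98, where 2081 features were higher and 1970 lower in CHIP-/-. Without those with high Myl7, 2535 features were called in wild type (reported: 3958). Without both kinds, an alternative chosen after seeing the data, the counts were 1369, 1219 and 4, with 1201 in wild type and 1 sham array left in each genotype, which is assumed to vary like the other groups. Leaving out 1 CHIP-/- array at a time gave 2448 to 2567 higher, 2294 to 2474 lower, and 351 (without TAB replicate 3) to 792 (without TAB replicate 2) for the difference. With the replicate number as a block the counts were 2599, 2538 and 511; 1 of 4 numbers matched its own number best. In the other alternatives each of these counts stayed within 1.5 times of the reported one. With the number of arrays at hand, CHIP-/- changes of about 0.5 on the log2 scale were mostly within reach, per the simulation. The simulation did not cover the difference between the genotypes. Calls of small changes were the least stable: of 24 alternatives, 15 lost the call for Hspb7, 13 that for Clock, 12 that for Vegfa and 11 that for Pecam1. The call for Xist was lost in 9 of 23, though its difference of 1.63 was not small. Its sham values lay far apart. A gene not well above background on any array of a group has a bound or no fold; where it was so, or was saturated, on part of a group's arrays, the printed difference may understate the change. On the sham arrays Apln, Ms4a7 and Isg15 were well above background on 3 of 4, and Masp1 on 2.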
